A study of Mus musculus with 6 samples.

Results

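Muscle stem cells of old mice that held little glutathione were compared with those that held much of it, over the 10609 genes, of 12067 in the table, that reached 1 RPKM (reads scaled to exon length and to the reads of the library) in at least 2 of the 6 libraries. A library here is the RNA of 1 sort, made into cDNA from an oligo(dT) primer and sequenced. The comparison set old GSH-low replicates 1 and 2 against old GSH-high replicates 1 and 2. All mice were C57BL/6 males, the labels name no mutation or treatment in life, and the old mice were 23 months of age. Limb muscle cells without CD45, CD31 and Sca1 and with VCAM were sorted, labelled with the thiol-reactive dye ThiolTracker Violet (5 uM) and sorted again by its brightness. Each old library pooled 2 animals. Whether a high and a low library came from the same pool was not stated, and 2 libraries per fraction show only the spread between such pools. The remaining 2 libraries came from mice of 4 months, 1 animal each, of which nearly all cells stained brightly and all were kept. They entered the fit as a group of their own and are given beside the old values for reference.

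Glutathione is a tripeptide of glutamate, cysteine and glycine and the main soluble thiol of the cell. Glutamate-cysteine ligase and glutathione synthetase make it, peroxidases and transferases use it, and glutathione reductase restores it with NADPH from the pentose phosphate pathway. Muscle stem cells, or satellite cells, lie between the myofibre and its basement membrane, carry the transcription factor Pax7, and rest until injury. Muscle also holds endothelial cells, pericytes, fibro-adipogenic progenitors, tenocytes at the tendon end, Schwann cells and leukocytes, each with marker genes that a pure stem cell sort would lack.

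The libraries held 46.39 to 67.93 M reads in the rows of the table, the 2 old GSH-low libraries being the shallowest at 50.06 and 46.39 M. A count of 0 allowed up to 0.0442 to 0.0647 CPM over the 6 libraries, by counting error alone. Along the leading principal component of log2(RPKM + 1), which held 72.7% of the variance, young and old libraries stood apart. Along the next, which held 16.8%, the old fractions did.

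Of the genes tested, 571 differed between the old fractions, or 5.38%, by limma on log2(RPKM + 1) with Benjamini-Hochberg adjustment at 0.05. The call "rose" below means higher in the GSH-low fraction, which held for 392 genes or 3.69%, and "fell" means lower there, which held for 179 genes or 1.69%. In 82.4% of genes the fractions differed by under 0.25 on the log2 scale, and the median difference was -0.01. The 2 low libraries lay wholly above or below the 2 high ones for all 571 genes called, but also for 55.5% of all genes tested, so a gap between the fractions alone is no sign of a difference. A fitted difference of at least 1 on the log2(RPKM + 1) scale was reached by 111 risen genes (1.05% of those tested) and, downward, by 62 fallen ones (0.584%). The share called was 6.94% of genes under 5 RPKM, 3.94% of genes between 5 and 50 RPKM and 5.67% of genes at 50 RPKM or more. In that last class 48 genes rose and 6 fell. In the young libraries 287 of the 392 risen genes had a mean below that of both old fractions. For the fallen genes the young mean lay between the old means in 93 of 179 cases. Each gene named below as risen or fallen was also called with any 1 of the 6 libraries left out, unless the libraries that end its call are given. All differences are on the log2(RPKM + 1) scale, given with their SE, and that scale understates the change of genes near or below 1 RPKM. A gene that passed the filter through 1 old fraction alone had to differ between the fractions. For the lists that held the most such genes their number is given, with the count over all members in the table from a fit without the filter. Of the genes named from the other lists, Mstn, Batf, Cdh19, Gfra3, Ckm, Il7 and Anpep passed through the low fraction alone. Cd248, Pi16, Sox17, Sox18, Aqp7, Timp4, Dll4, Gdf10, Gbp4 and Tgtp1 passed through the high fraction alone.

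**Figure D1:**
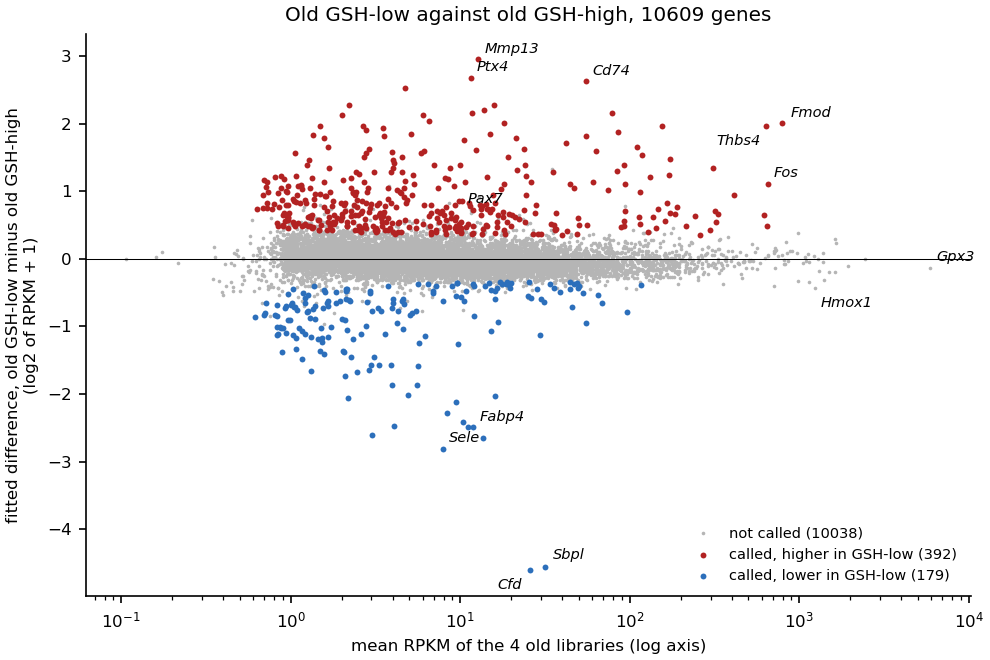
Each point is 1 of the 10609 genes tested, with its mean level over the 4 old libraries on the x axis (RPKM, log scale) and the log2(RPKM + 1) difference of old GSH-low minus old GSH-high on the y axis; the 392 risen and 179 fallen genes are coloured. Risen genes reach the right side of the plot, where fallen ones are few.

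The 15 largest rises among genes of at least 5 RPKM in their higher fraction held 6 tenocyte genes (Ptx4, Cilp2, Tnmd, Fmod, Chad and Thbs4) and 4 genes of the MHC class II pathway (Cd74, H2-Ab1, H2-Eb1 and H2-Aa). The 15 largest falls held 10 genes of the endothelial lists, the fatty acid handling genes Fabp4 and Cd36 among them, and Cfd and Cidec of the adipocyte list. Which cells gave the RNA of Fabp4 and Cd36 was not tested. Mmp13, a collagenase, had the largest rise: it was at 2.06 and 2.24 RPKM in the 2 old GSH-high libraries and at 25.9 and 20.9 in the 2 old GSH-low ones, a log2 difference of 2.95 ± 0.29 (adjusted p = 0.000436). Young cells had 1.82 and 0.318 RPKM of it, below the high fraction. Cfd, which codes for the adipocyte protease adipsin, had the largest fall, from 59.7 and 41.9 RPKM in the high fraction to 1.39 and 0.834 in the low one (-4.61 ± 0.17, adjusted p = 5.5e-06). Its young levels were 0.0369 and 0.0738 RPKM, so this gene was high in 1 of the 3 groups only. Sbpl, with a log2 difference of -4.56 ± 0.99, was far apart in the 2 high libraries: it was at 120 RPKM in old GSH-high replicate 1, at 6.06 in replicate 2 and at 0.375 and 0.118 in the low fraction. With 0.0588 RPKM in each young library, it passed the filter through the high fraction alone. Its call (adjusted p = 0.0328) ended without either low library, with an adjusted p of up to 0.149, and by limma-voom on recovered reads (0.233).

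**Figure D2:**
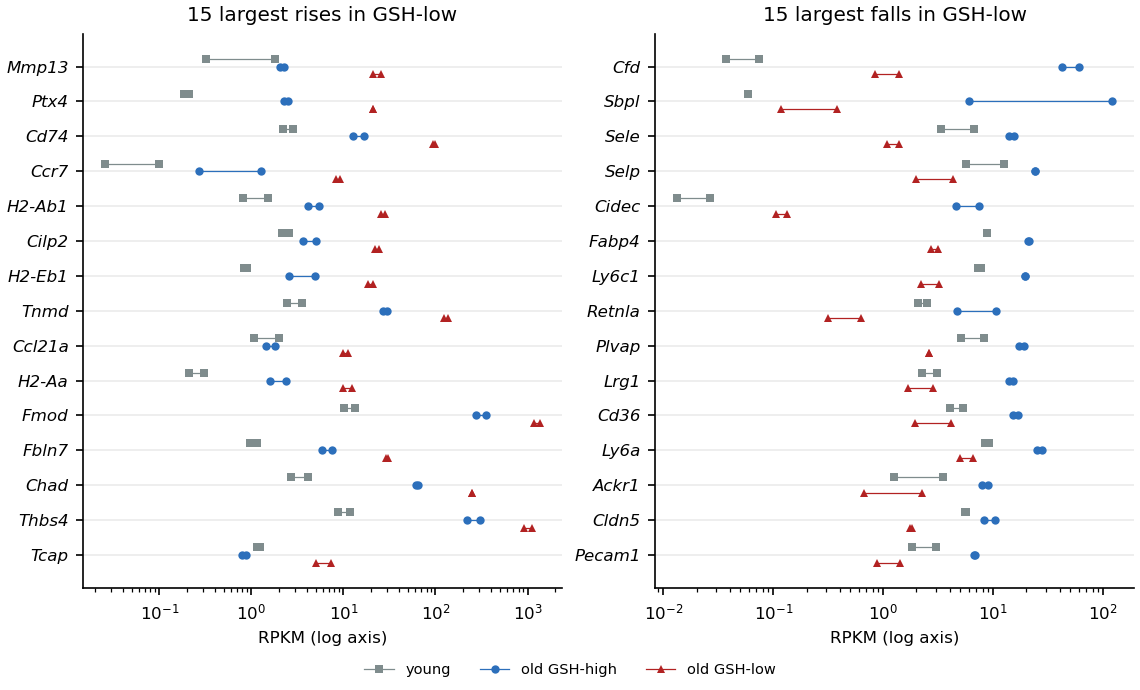
The 15 largest rises and 15 largest falls among called genes of at least 5 RPKM in the higher fraction, 1 gene a line, with RPKM on a log x axis and 1 point per library for each of the 3 groups. The 2 points of a fraction lie close together for most genes; Sbpl, at 120 and 6.06 RPKM in the high fraction, does not.

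Of 20 tendon matrix genes 17 rose and none fell, and the median log2 difference was 1.49. The count was 17 with each of the 6 libraries left out in turn. Without the filter it was 17 of 21, and 2 of the risen genes had passed the filter through the low fraction alone. Tnmd (GRCm38, chrX:133850980-133865577), which codes for tenomodulin, a surface protein of mature tenocytes, was at 29.6 and 27.2 RPKM in the high fraction and at 136 and 124 in the low one (2.15 ± 0.13, adjusted p = 4.97e-05). Chad, the cartilage and tendon protein chondroadherin, was at 62.0 and 64.5 RPKM against 247 and 252 (1.96 ± 0.14, adjusted p = 8.87e-05). The 2 libraries of each fraction differed by far less than the fractions did. Comp, which codes for cartilage oligomeric matrix protein, went from 39.3 and 32.6 RPKM to 129 and 138, and Thbs4, its relative thrombospondin 4, from 302 and 220 to 1117.1 and 909. Ptx4, a long pentraxin gene, was at 2.51 and 2.28 RPKM in the high fraction and at 20.7 and 20.8 in the low one (2.68 ± 0.09, adjusted p = 5.32e-06). Its young levels, 0.184 and 0.212 RPKM, were lower still. Summed over the list, the levels were 1092.3 and 887.0 RPKM in the high fraction, 3724.4 and 3239.2 in the low one and 204 and 178 in young cells. As RNA was read in bulk, more cells of a type and more of its RNA per cell cannot be told apart here or in any group below.

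Of 9 transcription factors of the tendon lineage 2 rose. Scx, scleraxis, the factor that marks tendon progenitors, was at 2.69 and 2.62 RPKM in the high fraction and at 6.12 and 6.33 in the low one (0.99 ± 0.11, adjusted p = 0.000763). Mkx, the homeobox factor Mohawk, was at 6.25 and 5.05 RPKM against 9.66 and 8.4, and its call (adjusted p = 0.0222) ended without old GSH-high replicate 2 or either low library (largest adjusted p = 0.187). The other 7 did not pass the test. The young levels of Scx, 2.74 and 2.15 RPKM, spanned those of the high fraction, whereas the matrix genes named above were lowest in young cells.

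Small leucine-rich proteoglycans bind collagen fibrils and set their width. Of 11 measured, 8 rose and none fell (median 1.10), and 6 to 9 rose with a library left out. Fmod, fibromodulin, had the highest level per length of these, at 356 and 278 RPKM in the high fraction and 1364.4 and 1183.2 in the low one (2.01 ± 0.15, adjusted p = 0.000131). Aspn, asporin, was at 20.6 and 17.4 RPKM against 73.6 and 56.0. Dcn, decorin, was at 185 and 163 RPKM against 482 and 405 (1.34 ± 0.13, adjusted p = 0.000525). Every low library lay at more than 2 times the level of every high library for these 3 genes. Prelp and Omd rose too, but their calls ended without old GSH-high replicate 2 or low replicate 1, with adjusted p of up to 0.0629 and 0.124. Lum and Bgn did not pass the test, at 22.9 and 19 against 33.2 and 28.1 RPKM and at 38.5 and 39.5 against 40.9 and 44.7, though Lum was called as risen with the old libraries alone (adjusted p = 0.0313). Fmod, Chad and Kera of this list are on the tenocyte list too, and fibroblasts make several of the others. Which cells gave the RNA was not tested.

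Fibrillar and fibril-associated collagens gave 7 rises and no fall among 15 genes (median 0.31), with 4 rises without old GSH-low replicate 1. Col1a2, which codes for a chain of type I collagen, was at 27.1 and 28.5 RPKM in the high fraction and at 59.5 and 61.8 in the low one (1.10 ± 0.13, adjusted p = 0.00114). Col1a1, the other chain, was at 33.1 and 41.6 RPKM against 89.3 and 77.6, with an adjusted p of 0.00646 that became 0.0559 without low replicate 1. Col3a1, the type III chain that tendon holds less of than other connective tissue, was at 112 and 120 RPKM against 89.3 and 101 and did not pass the test (adjusted p = 0.343). The 15 basement membrane genes, which code for the sheet on which satellite cells sit, gave no call by limma over the 6 libraries (median -0.05). They gave none by limma-voom on recovered reads and none at an unadjusted p under 0.05. With the old libraries alone limma called Nid2 as lower (adjusted p = 0.0371). Among 17 matrix proteases 6 rose and 1 fell. Mmp3, stromelysin, was at 60.7 and 59.3 RPKM in the high fraction and at 183 and 168 in the low one, and Mmp2, the gelatinase of fibroblasts, at 128 and 109 against 224 and 199. Ctsk, the collagen-degrading cathepsin K, was at 10.6 and 11.7 RPKM against 36.9 and 35.6 (1.62 ± 0.10, adjusted p = 4.97e-05). Protease inhibitors split: Serpinf1 rose from 88.5 and 91.6 to 247 and 260.0 RPKM, while Timp4 fell from 1.47 and 1.23 to 0.364 and 0.25 and Serpina3n from 36.8 and 35.5 to 23.2 and 24.3.

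Endothelial genes moved the other way. Of 19 genes for endothelial junctions and receptors 16 fell and none rose (median -1.17), and 16 to 17 fell with a library left out. Of the 16, 9 passed the filter through the high fraction alone, and without the filter 16 of 20 fell. Pecam1, which codes for CD31, an antigen that the sort selected against, was at 6.67 and 6.86 RPKM in the high fraction, at 1.41 and 0.877 in the low one and at 1.81 and 3.02 in young cells (-1.87 ± 0.18, adjusted p = 0.000373). Cdh5, the cadherin of endothelial junctions, went from 3.37 and 3.36 RPKM to 0.969 and 0.45. Cldn5, the claudin of tight junctions, went from 8.22 and 10.4 RPKM to 1.84 and 1.76. For these 3 genes the 2 high libraries lay above all 4 others. Kdr, the main receptor for vascular endothelial growth factor, was at 2.13 and 1.91 RPKM against 0.528 and 0.283 (-1.11 ± 0.16, adjusted p = 0.00346). The list's summed level was 107 and 108 RPKM in the high fraction, 50.7 and 44.6 in the low one and 59.1 and 69.9 in young cells.

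Genes of activated and venular endothelium gave 8 falls and 1 rise among 11. The cytokine gene Csf3 was 1 of the 8, and its fall is counted again among the cytokines below. Sele and Selp, the selectins that catch leukocytes from the blood, lie close together on chromosome 1 (chr1:164048234-164057677 and chr1:164115264-164150026). Sele was at 15.3 and 14.0 RPKM in the high fraction and at 1.08 and 1.38 in the low one (-2.81 ± 0.22, adjusted p = 0.000152), and Selp was at 24.0 in each high library against 1.98 and 4.32. Ackr1, the chemokine scavenger of venules, was at 8.99 and 7.89 RPKM against 0.665 and 2.23, and its call ended without high replicate 1 or low replicate 1 (adjusted p of up to 0.0515). Procr, the endothelial protein C receptor, which other cells carry too, was the member that rose, from 30.8 in each high library to 97.2 and 94.3 RPKM (1.60 ± 0.08, adjusted p = 2.21e-05). Capillary genes gave 6 falls and 1 rise among 10. Fabp4, a fatty acid carrier, went from 20.8 and 21.3 RPKM to 3.14 and 2.7 (-2.49 ± 0.09, adjusted p = 5.32e-06), and Cd36, a fatty acid transporter, from 15 and 16.7 to 4.15 and 1.92. Of 7 endothelial transcription factors the SoxF genes Sox7, Sox17 and Sox18 fell and no other did. Sox7 went from 5.72 and 6.9 RPKM to 1.67 and 1.25 (-1.57 ± 0.13, adjusted p = 0.00018). Rgcc was the capillary gene that rose, and its call, like that of Aqp7, ended when any 1 of the 4 old libraries was left out, while that of Aqp1 ended without high replicate 2. Whether these genes were read in the stem cells themselves, in endothelial cells or in other cells of the sort was not tested.

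The genes of the sort antigens were read too. The gates acted on surface protein, and how far they held was not tested. Ly6a, which codes for Sca1, was at 24.8 and 27.9 RPKM in the high fraction, at 6.55 and 4.93 in the low one and at 9.2 and 8.42 in young cells (-2.03 ± 0.12, adjusted p = 5.1e-05). Endothelial cells and fibro-adipogenic progenitors both carry Sca1. Vcam1, the antigen the sort selected for, was at 207 and 198 RPKM against 186 and 172 and did not pass the test (adjusted p = 0.303). Ptprc, which codes for CD45, stayed below 1 RPKM in every library and was not tested, with 68 and 124 reads in the high fraction, 553 and 493 in the low one and 3 in each young library. RNA of all 3 antigens the sort selected against was thus read in the old libraries, that of CD31 and Sca1 more in the high fraction and that of CD45 more in the low one.

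**Figure D3:**
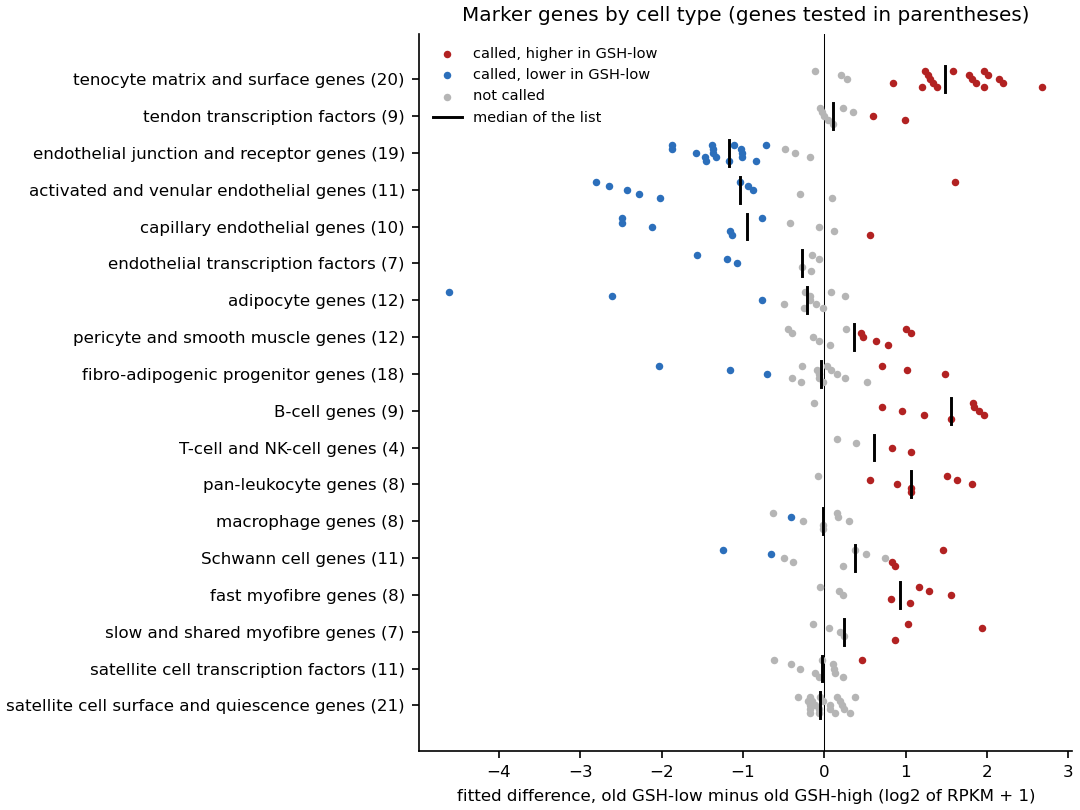
Differences of old GSH-low minus old GSH-high in log2(RPKM + 1) for the marker genes of the cell types muscle holds, 1 point per gene, with called genes coloured and each list's median as a bar. Tenocyte, B-cell and pan-leukocyte genes lie mostly above 0 and endothelial genes mostly below, while satellite cell genes cluster at 0.

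Adipocyte genes gave 3 falls and no rise among 12. All 3 passed the filter through the high fraction alone, and without it the count was 3 of 13 (median -0.18). Cidec, a coat protein of lipid droplets, went from 7.38 and 4.54 RPKM to 0.105 and 0.134 (-2.61 ± 0.17, adjusted p = 6.9e-05). Behind these values were 948 and 521 reads in the high fraction and 10 and 12 in the low one. Adipoq, adiponectin, went from 1.9 and 1.81 RPKM to 0.804 and 0.557 (adjusted p = 0.00373, and 0.0776 by limma-voom on the recovered reads). Pparg, the regulator of fat cell differentiation, was at 2.34 and 3.09 RPKM against 1.84 and 1.43 (adjusted p = 0.0773), and Lpl, lipoprotein lipase, at 10.3 and 10.4 against 9.97 and 9.26. The genes that fell were the ones nearly unread in young cells, where Cidec had 3 and 0 reads.

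Pericyte and smooth muscle genes gave 6 rises and no fall among 12 (median 0.36). Steap4, of this list, was called as lower in the GSH-low fraction by limma-voom (adjusted p = 0.0446) and by limma with the old libraries alone (0.0287). The list's summed level was not higher in the low fraction, at 294 and 305 RPKM in the high fraction and 288 and 269 in the low one. The calls of Mcam and Cspg4 ended when any 1 of the 4 old libraries was left out and that of Mylk without either high library or low replicate 1, which left 3 rises. Pdgfrb, a receptor that pericytes carry but that does not define them alone, was at 6.21 and 4.98 RPKM in the high fraction and at 14.2 and 11.5 in the low one (1.07 ± 0.15, adjusted p = 0.00371). Kcnj8 and Rgs5, a potassium channel subunit and a G protein regulator of pericytes, went from 2.67 and 2.26 to 6.45 and 5.54 RPKM and from 7.62 and 8.7 to 15.3 and 14.0. Acta2, the actin of smooth muscle, was at 56.7 and 77.6 RPKM against 60.1 and 67.3 and did not pass the test. Genes of fibro-adipogenic progenitors split, with 3 rises and 3 falls among 18: Cd248, endosialin, fell from 2.37 and 2.02 to 0.508 and 0.359 RPKM and Pi16 from 1.4 in each high library to 0.557 and 0.408. Pdgfra, the receptor that defines these cells, was at 1.33 and 1.17 RPKM against 1.62 and 1.01 (adjusted p = 0.936). Schwann cell genes split likewise, 3 up and 2 down of 11: Prx, periaxin, which myelinating Schwann cells make, fell from 2.13 and 2.36 to 1.13 and 0.98 RPKM (adjusted p = 0.00655), and Cdh19, a cadherin, rose from 0.628 and 0.446 to 2.08 and 1.4 (adjusted p = 0.00881). The call of Prx ended without high replicate 2 or low replicate 2 (up to 0.0658), and that of Cdh19 without high replicate 2 or low replicate 1 (up to 0.0714). Neither list had a common direction.

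Fast myofibre genes gave 5 rises and no fall among 8 (median 0.94), and genes shared with slow fibres gave 3 among 7, Acta1, Tcap and Ckm. Tnnt3, the troponin T of fast fibres, was at 2.41 and 2.52 RPKM in the high fraction and at 9.14 and 9.29 in the low one (1.56 ± 0.09, adjusted p = 4.16e-05). Acta1, the actin of the sarcomere, was at 10.9 and 11.5 RPKM against 23.8 and 23.9. Tcap, the titin cap protein of the Z-disc, went from 0.793 and 0.886 RPKM to 5.05 and 7.27 (1.94 ± 0.14, adjusted p = 0.000107). Ckm, muscle creatine kinase, went from 0.571 and 0.577 RPKM to 1.74 and 2.01. The young libraries were close to the high fraction for these genes, at 1.77 and 1.67 RPKM of Tnnt3 and 14.0 and 13.9 of Acta1. The markers of fusing myoblasts went the other way or did not pass: Myog, which codes for myogenin, was at 5.18 and 7.09 RPKM against 2.96 and 4.32 (adjusted p = 0.0939), and Mymk, the fusion protein myomaker, was at 1.31 and 1.8 against 0.348 and 0.797 (adjusted p = 0.0391, a call that ended without either high library or low replicate 1).

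Leukocyte genes were read at low levels in the high fraction and at higher ones in the low fraction. Of 8 genes shared by all leukocytes 7 were called as higher there, but each of the 7 passed the filter through that fraction alone. Without the filter 10 of the 11 in the table were called as higher (median 0.89), with a filter of 5 RPKM 1 was, and without low replicate 1 the 7 became 5. The list's summed level was 9.92 and 12.3 RPKM in the high fraction, 29.3 and 27.3 in the low one and 2.4 and 1.97 in young cells. Laptm5, a lysosomal protein of blood cells, went from 0.759 and 1.32 to 6.38 and 5.81 RPKM, and Coro1a, the coronin of leukocytes, from 0.732 and 1.14 to 4.93 and 4.05. Among 9 B-cell genes 8 were called as higher, 6 of them having passed the filter through the low fraction alone. Without the filter 10 of 12 were (median 1.09), and with a filter of 5 RPKM 1 was. Cd79a, a signalling chain of the B-cell antigen receptor, was at 1.63 and 1.73 RPKM against 9.45 and 7.76 (1.84 ± 0.11, adjusted p = 4.97e-05). Ms4a1, which codes for CD20, stayed below the filter with no read in the young or high libraries and 166 and 165 in the low ones. Blnk, an adaptor of the same receptor, made up most of the list's summed RPKM in the high fraction and did not pass the test, at 13 and 11.7 against 11.9 and 10.6 RPKM. Of 4 dendritic cell genes 1 rose and none fell (median 0.17), and only 2 had a difference above 0. The risen gene was Ccr7, the receptor that guides cells to lymph nodes and that B and T cells share. Ccr7 went from 0.27 and 1.27 to 8.3 and 9.17 RPKM (2.52 ± 0.22, adjusted p = 0.00029). It too passed the filter through the low fraction alone. Macrophage genes gave 1 fall among 8, C1qa, whose call ended when any 1 of the 4 old libraries was left out, with a pseudocount of 0.1 and by limma-voom. Of 5 neutrophil genes none was called by limma or by limma-voom, and 1 had an unadjusted p under 0.05. The leukocyte list's part in other results was not tested.

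MHC class II molecules show peptides to helper T cells and are made by B cells, dendritic cells and macrophages, and by some other cells after interferon gamma. Of 12 genes of this pathway 8 rose and none fell (median 0.67), and 6 to 8 rose with a library left out. The 3 H2-DM genes among the 8 passed the filter through the low fraction alone, and without the filter 9 of 13 rose. Cd74, whose product escorts new class II molecules to endosomes, was at 12.7 and 16.8 RPKM in the high fraction, at 98.4 and 92.8 in the low one and at 2.86 and 2.18 in young cells (2.63 ± 0.14, adjusted p = 3.07e-05). The chains of the class II molecules went the same way: H2-Ab1 was at 4.11 and 5.49 RPKM against 28.4 and 25.5, H2-Aa at 1.59 and 2.39 against 12.5 and 9.99, and H2-Eb1 at 2.57 and 4.95 against 20.8 and 18.5. The low fraction was highest for each of the 3, with no overlap. The H2-DM genes code for the exchange factor that loads peptides. H2-DMb2 had 4 and 17 reads in the high fraction and 366 and 382 in the low one (adjusted p = 2.09e-05), and H2-DMb1, its neighbour and near copy, was at 0.413 and 0.51 RPKM against 1.03 and 1.69 (adjusted p = 0.0253). The call of H2-DMb1 ended without either high library or low replicate 2 (adjusted p of up to 0.14), that of H2-DMa without high replicate 2 or low replicate 1 (up to 0.0961), and reads may be split unevenly between the H2-DMb copies. H2-Ob, the B-cell modulator of H2-DM, was below the filter, with 4 and 3 reads in the high fraction and 377 and 240 in the low one. MHC class I genes, by contrast, gave no call among 20 by limma or limma-voom, none at an unadjusted p under 0.05 (median -0.04), and B2m, their shared light chain, was at 1074.0 and 1120.5 against 1194.3 and 1106.8 RPKM. The B-cell markers above rose in the same 2 libraries, and their part in the class II levels was not tested.

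The promoters of the class II genes are shown because these genes rose together and because class II promoters are known to carry a CCAAT box bound by the factor NF-Y. RefSeq (GRCm38.p6) gave a promoter window for 6 of the 8 risen genes, and CCAAT, on either strand, lay within the 250 bases before the start in 5 of them, against 33.8% of all 32851 windows of that length. That share is per window and the count per gene. H2-DMa was counted, though the first of its 2 windows (chr17:34122582-34122881) holds no CCAAT. The 120 bases before the RefSeq start are printed for H2-Aa (chr17:34287824-34287943, minus strand), H2-Eb1 (chr17:34305747-34305866, plus strand), H2-DMb1 (chr17:34153071-34153190, plus strand) and H2-DMb2 (chr17:34145129-34145248, plus strand). Capitals mark CCAAT or its complement ATTGG, the cyclic AMP response element TGACGTCA and the AP-1 site TGANTCA. A match of letters is no evidence of binding.
H2-Aa: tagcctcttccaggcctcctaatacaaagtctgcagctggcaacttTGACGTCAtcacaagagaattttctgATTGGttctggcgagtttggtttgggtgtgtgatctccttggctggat
H2-Eb1: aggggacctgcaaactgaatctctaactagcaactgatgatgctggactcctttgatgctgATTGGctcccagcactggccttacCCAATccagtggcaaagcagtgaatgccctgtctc
H2-DMb1: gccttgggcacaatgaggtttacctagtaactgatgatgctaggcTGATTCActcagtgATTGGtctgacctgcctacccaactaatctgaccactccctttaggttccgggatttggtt
H2-DMb2: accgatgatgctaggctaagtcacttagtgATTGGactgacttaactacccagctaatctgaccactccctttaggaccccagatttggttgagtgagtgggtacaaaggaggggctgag
In H2-Aa the response element begins 74 bases before the start and ATTGG 48 bases before it; that element is found in 1.55% of all windows. In H2-Eb1 ATTGG begins at 59 and CCAAT at 35 bases before the start. H2-DMb1 carries the AP-1 letters, which 6.75% of windows hold, 75 bases before its start and ATTGG at 61, while H2-DMb2 carries ATTGG at 90.

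Early response genes are switched on within minutes of a stimulus, cell dissociation included. Of 13 AP-1 subunits 7 rose and none fell (median 0.48), but only 2 rose without old GSH-high replicate 2. Fos was at 421 and 402 RPKM in the high fraction and at 891 and 890.0 in the low one (1.11 ± 0.10, adjusted p = 0.000253). Its young levels, 1004.9 and 897 RPKM, were above those of the low fraction. Batf, the AP-1 partner found in lymphocytes, went from 0.565 and 1.02 to 2.34 and 2.44 RPKM. Jun was at 273 and 243 RPKM against 409 and 407 (adjusted p = 0.00334, and 0.0592 without high replicate 2). Junb, at 562 and 515 against 764 and 744, and Jund, at 177 and 180.0 against 241 and 261, were called (adjusted p = 0.0194 and 0.0239) but lost the call when any 1 of the 4 old libraries was left out. Egr1, a zinc finger factor of the same response, was at 1352.5 and 1216.3 against 1310.3 and 1257.7 RPKM (adjusted p = 0.997), and Fosl1, at 70.4 and 65.5 against 63.8 and 75.8, overlapped between the fractions. Some early genes thus rose and others did not pass the test.

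Among 16 genes of the EGR, NR4A, KLF and IER families 4 rose. Nr4a1, an orphan nuclear receptor, went from 73.8 and 68.8 to 121 and 111 RPKM (0.70 ± 0.09, adjusted p = 0.00173), and Klf2 from 18.5 and 16.9 to 31.7 and 28.2. The call of Nr4a2 ended without high replicate 2 or low replicate 1 (adjusted p of up to 0.0746), and that of Klf6 when any 1 of the 4 old libraries was left out (up to 0.299). Of 21 feedback inhibitors 4 rose, and 7 without either young library. Socs3, which blocks signalling by interleukin 6 receptors, was at 83.3 and 72.1 RPKM against 165 and 143 (0.98 ± 0.11, adjusted p = 0.000854), and Zfp36, which destabilizes cytokine mRNAs, at 112 and 107 against 192 and 178. The calls of Gadd45b and Gadd45g ended without high replicate 2 or low replicate 2, and that of Gadd45g also without high replicate 1 (up to 0.0833 and 0.229). Of 15 NF-kappa B genes Nfkbie, an inhibitor of the factor, alone was called, at 44.4 and 41.2 against 57 and 53.1 RPKM (0.36 ± 0.08, adjusted p = 0.0467). The call ended when any 1 of the 4 old libraries was left out (up to 0.362), with a pseudocount of 0.1 and with a filter of 5 RPKM. Nfkbia, the inhibitor that NF-kappa B induces, was at 679 and 684 against 734 and 790.0 RPKM and did not pass the test (adjusted p = 0.478).

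Cytokines split, with 2 rises and 3 falls among 14. Il6, interleukin 6, was at 80.5 and 77.6 RPKM in the high fraction, at 197 and 172 in the low one and at 15.6 and 18.5 in young cells (1.21 ± 0.11, adjusted p = 0.000267). Csf3, granulocyte colony-stimulating factor, went down from 20.6 and 23.8 to 13.8 and 8.76 RPKM (adjusted p = 0.0132, and 0.0982 without high replicate 2). Il33, an alarmin, went from 40.5 and 36.1 to 27.6 and 21.3 RPKM (adjusted p = 0.0188), and Il18 from 17.2 and 18.4 to 13.5 and 11.8 (adjusted p = 0.0212). Both calls ended without either high library or low replicate 2, and that of Il18 also by limma-voom. Il7, which lymphocytes need, went up from 0.692 and 0.685 to 1.59 and 1.24 RPKM (adjusted p = 0.0321), a call that ended without either high library or low replicate 1. Lif, of the interleukin 6 family, was at 16.2 and 13.1 against 19.9 and 15.5 RPKM and did not pass the test.

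Of 19 chemokines 5 rose and 2 fell. Cxcl10 (chr5:92346638-92348889), which draws activated T cells, was at 13.2 and 15.2 RPKM in the high fraction and at 32.1 and 36.8 in the low one (1.22 ± 0.12, adjusted p = 0.000427), close to the 28.8 and 23.9 RPKM of young cells. Cxcl12, which retains stem cells and leukocytes, went from 11.1 and 11.5 to 21.8 and 17.6 RPKM. Ccl21a, a ligand of Ccr7, went from 1.46 and 1.82 to 10 and 11.1 RPKM (2.13 ± 0.17, adjusted p = 0.000149), though its near copies make the assignment of its reads uncertain. Ccl7 and Ccl11 were called as risen until high replicate 2 or low replicate 1 was left out (adjusted p of up to 0.208 and 0.0727). Cxcl5, a neutrophil attractant, went down from 88.6 and 78.6 to 57.9 and 48.2 RPKM, with a call that ended without high replicate 1 or low replicate 2 (up to 0.101). Ccl8, the other chemokine called as lower, went from 7.61 and 4.3 to 2.21 and 2.8 RPKM, and its call ended without high replicate 1 or either low library (up to 0.201), and with a pseudocount of 0.1 or limma-voom. Cxcl1, the most abundant chemokine here, was at 2113.8 and 1906.6 against 1900.9 and 1808.2 RPKM and did not pass the test.

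Of the 3 risen chemokines with a RefSeq promoter window, Cxcl10 was the one whose window held the letters searched for NF-kappa B (GGGANTTCC, in 1.43% of all windows) and for interferon factors (TTTC, any 2 bases, then TTTC, in 2.98%). Its promoter is shown because Il6 and some interferon genes, below, rose as it did. The 220 bases before the start (chr5:92348890-92349109, minus strand) carry, in capitals, the interferon letters on the opposite strand 213 bases before the start, GGGACTTCC at 103 and the AP-1 letters at 74.
Cxcl10: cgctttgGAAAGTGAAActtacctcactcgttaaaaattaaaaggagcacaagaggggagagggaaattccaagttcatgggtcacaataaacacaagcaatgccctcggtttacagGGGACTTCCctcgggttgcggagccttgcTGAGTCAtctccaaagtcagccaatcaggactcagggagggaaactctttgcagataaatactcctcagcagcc
No peak or binding data were part of the comparison, so no use of these sites can be read from it.

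Interferon-stimulated genes gave 4 rises and no fall among 27 (median 0.12). Ifit3 and Ifit1, which bind viral RNA, went from 6.74 and 7.37 to 12.7 and 14.4 RPKM and from 10.7 and 9.56 to 19.1 and 17.8 (adjusted p = 0.00111 and 0.00176). Oas2, which senses double-stranded RNA, was below the filter, with 170 and 149 reads in the high fraction and 9 and 8 in the low one. The interferon-inducible GTPases, which attack the vacuoles of pathogens, split, with 2 rises and 4 falls among 14. Ifi47 rose from 10.1 and 9.33 to 17.2 and 17.6 RPKM (adjusted p = 0.000827), while Gbp4 fell from 1.23 and 1.39 to 0.33 and 0.277, Gbp9 from 2.16 and 2.43 to 1.05 and 1.02 and Tgtp1 from 1.18 and 1.17 to 0.164 and 0.279. Gbp4, Gbp9 and Tgtp1 were highest in the high fraction, as the summed endothelial levels above were, and the part of endothelial RNA in their levels was not tested. The fourth fall, of Gbp3, ended when any 1 of the 4 old libraries was left out.

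Secreted regulators of muscle and matrix were called in small numbers. Of 21 ligands and antagonists of the TGF-beta and BMP family 4 rose and 1 fell. Mstn (chr1:53061640-53068079), myostatin, the inhibitor of muscle growth, was at 0.0855 and 0.239 RPKM in the high fraction and at 3.32 and 2.67 in the low one (1.78 ± 0.12, adjusted p = 7.61e-05), on 16 and 40 reads against 461 and 348. Young cells had 12 and 9 reads of it, and it passed the filter through the low fraction alone. Inhba, a subunit of activin A, went from 1.86 and 1.91 to 4.35 and 3.77 RPKM. The calls of Chrdl1 and, in the other direction, Gdf10 ended without high replicate 2 or low replicate 1, and that of Fstl3 when any 1 of the 4 old libraries was left out. Of 22 receptors and effectors of the family Acvrl1, a receptor of endothelium, alone was called, as a fall that ended when any 1 of the 4 old libraries was left out. Of 15 Wnt genes 3 rose. Dkk3, of the Dickkopf family, went from 2.3 and 2.13 to 7.35 and 6.38 RPKM, and Wif1, which binds Wnt ligands outside the cell, from 2.64 and 2.78 to 6.3 and 7.04. Igfbp6, which binds insulin-like growth factor 2, rose from 51.7 and 45.5 to 98.8 and 100 RPKM (1.02 ± 0.12, adjusted p = 0.00136), and Fgf18 from 1.39 and 1.23 to 4.18 and 2.82. In young cells all of Inhba, Dkk3, Wif1, Igfbp6 and Fgf18 were lower than in either old fraction.

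The genes of glutathione itself, the property on which the cells were split, are set beside the 5.38% of all genes tested that limma called. Of 19 genes of its synthesis and turnover limma called 1 as risen and none as fallen, limma-voom on recovered reads called 1 each way, and 7 had an unadjusted p under 0.05. Anpep, an aminopeptidase, was the risen gene, and its limma call (adjusted p = 0.0261) ended without high replicate 2 or either low library (up to 0.208) and with a pseudocount of 0.1. With the old libraries alone limma called 2 as fallen, the peptidases Lap3 and Cndp2 (-0.34 each, adjusted p = 0.0267 and 0.0337). Dpep1, a dipeptidase, had the lowest difference of the list (-0.57) and was not called in the main fit. A limma fit that blocked on replicate number called Dpep1 as lower, in all 6 libraries (adjusted p = 0.0264) and in the old ones (0.00402). Its difference was -0.77 without low replicate 1. Gclc, the catalytic subunit of glutamate-cysteine ligase, was at 65.2 and 52.2 RPKM in the high fraction and at 56.8 and 51.3 in the low one (-0.11 ± 0.11, adjusted p = 0.657). Gclm, its modifier subunit, was at 73.9 and 71.3 RPKM against 64.3 and 59.3 (-0.23 ± 0.08, adjusted p = 0.176), a difference without overlap that did not pass the test. Slc7a11, the cystine importer, was at 0.726 and 0.68 RPKM against 0.353 and 0.379, with young levels of 1.36 and 1.18 above both. It did not pass limma's test (-0.32, adjusted p = 0.121) and was called as lower in the GSH-low fraction by limma-voom (-0.94, adjusted p = 0.00713). Gss, the synthetase, was at 5.37 and 5.66 against 5.0 and 4.99 RPKM, and Gsr, the reductase, at 21.9 and 19.9 against 20.9 and 17.1. None of 27 genes for glutathione-using enzymes was called by limma over the 6 libraries or by limma-voom, and 4 had an unadjusted p under 0.05. With the old libraries alone limma called Gstm2 and Gstm5 as lower (adjusted p = 0.0394 and 0.0367). Gpx3, an extracellular peroxidase and the most abundant, was at 6298.8 and 6115.4 against 5584.9 and 5769.6 RPKM. With a median SE of 0.10 over all genes and a smallest called difference of 0.34, differences much smaller than that were not detectable by this test.

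The genes that supply NADPH gave 2 falls and no rise among 16 (median -0.15). G6pdx (chrX:74409483-74429194), glucose-6-phosphate dehydrogenase, which opens the pentose phosphate pathway, was at 12.1 and 12.2 RPKM in the high fraction and at 8.06 and 7.8 in the low one (-0.56 ± 0.08, adjusted p = 0.00413). Its young levels, 8.36 and 8.69 RPKM, lay near those of the low fraction. The call ended without high replicate 2, at an adjusted p of 0.0514. Pgd, the next oxidative step, was at 14.3 and 13.4 RPKM against 10.7 and 9.71 (adjusted p = 0.0351), and its call ended when any 1 of the 4 old libraries was left out (up to 0.266). The non-oxidative steps gave no call, Tkt being at 4.49 and 4.27 against 4.51 and 4.63 RPKM. Of 22 regulators and targets of NRF2, the factor of the oxidant response, Aldh3a1, an aldehyde dehydrogenase, alone was called by limma (20.3 and 19.6 against 15.3 and 15.1 RPKM), and its fall ended when any 1 of the 4 old libraries was left out. The median was -0.07. Hmox1, heme oxygenase 1, was at 1493.5 and 1337.1 RPKM in the high fraction and at 1084.4 and 1020.3 in the low one (-0.43 ± 0.10, adjusted p = 0.0542), and Srxn1, sulfiredoxin, at 431 and 369 against 313 and 305 (adjusted p = 0.0761). Neither gene overlapped between the fractions. Neither passed limma's test over the 6 libraries, but both were called as lower by limma-voom (adjusted p = 0.0144 and 0.036) and by limma with the old libraries alone (0.0231 and 0.044). In all, limma-voom called 4 genes of the NRF2 list as lower, the others being Slc7a11 and Aldh3a1. Nqo1, at 2.75 and 2.46 against 2.4 and 1.62 RPKM, and Osgin1, at 140 and 125 against 132 and 127, did not pass either. Metallothionein and ABC transporter genes, the latter able to carry dyes and glutathione conjugates out of cells, gave no call by limma. At an unadjusted p under 0.05 they held 3 of 12 and 2 of 6 genes, and limma-voom called Abcg2 as lower in the GSH-low fraction.

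**Figure D4:**
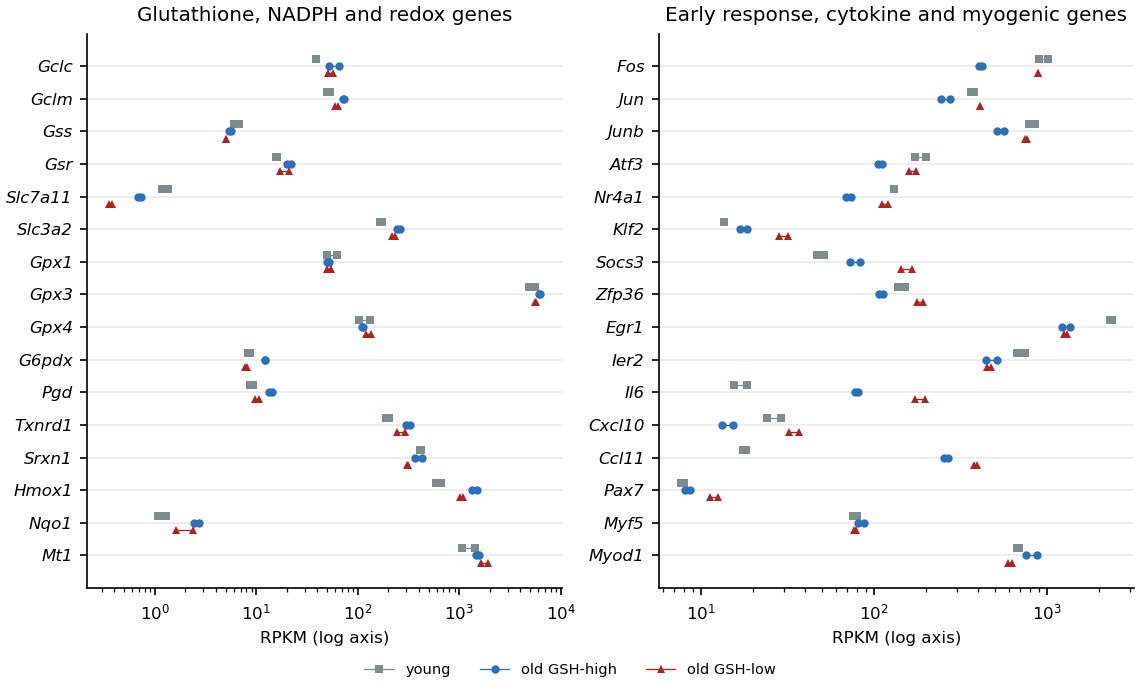
Levels of glutathione, NADPH, NRF2 target and early response genes in RPKM, 1 point per library, for each of the 3 groups. The old fractions overlap for Gclc and Gsr and lie apart for G6pdx (12.1 and 12.2 against 8.06 and 7.8) and Fos (421 and 402 against 891 and 890.0).

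Few genes of the stem cells themselves were called by limma, as few were among all genes tested (5.38%). Of 11 satellite cell transcription factors 1 rose, and of 21 surface and quiescence genes none was called by limma, 1 by limma-voom (Cav1, lower in the GSH-low fraction) and 4 at an unadjusted p under 0.05. Without either young library limma called 1 of the surface and quiescence genes as risen and 1 as fallen. Myf5, the early myogenic factor, was at 80.8 and 87.2 RPKM in the high fraction and at 76.3 and 78.6 in the low one. Sdc4, a syndecan of satellite cells, was at 1632.6 and 1584.7 against 1462.9 and 1336.0 RPKM. Myf5 and Sdc4 were thus read at high levels in all 4 old libraries, as the label of the cells has it. Pax7 was at 8.09 and 8.65 RPKM against 11.2 and 12.6 (0.46 ± 0.09, adjusted p = 0.0225), with a call that ended when any 1 of the 4 old libraries was left out (up to 0.202). Myod1, the factor of activated satellite cells, was at 877 and 759 RPKM against 630.0 and 594 (-0.41 ± 0.10, adjusted p = 0.0542). It was called as lower in the GSH-low fraction by limma-voom (adjusted p = 0.0178) and by limma with scaling to library size only (0.042) or with the old libraries alone (0.0317). Hes1, the Notch target, was at 12.4 and 11.4 against 16.4 and 17.6 RPKM, and its call (adjusted p = 0.0351) was as dependent on each old library as that of Pax7. Dll4, the Notch ligand of endothelium, went the other way, from 1.61 and 1.2 to 0.581 and 0.313 RPKM (adjusted p = 0.0155, ending without high replicate 1 or low replicate 2).

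None of 10 genes of G2 and mitosis was called by limma, though their median was -0.46, 8 had an unadjusted p under 0.05 and limma-voom on the recovered reads called 4 as lower in the GSH-low fraction (Ccna2, Mki67, Aurkb and Top2a). Without old GSH-high replicate 1 limma called 5 as lower, Ccnb2, Mki67, Aurkb, Top2a and Birc5, and without either young library it called 1, Ccnb2. Ccnb2, cyclin B2, was at 2.74 and 4.11 RPKM in the high fraction, at 1.69 and 1.95 in the low one and at 4.86 and 5.91 in young cells (adjusted p = 0.0524). Mki67 was at 0.398 and 0.882 RPKM against 0.141 and 0.165 (adjusted p = 0.0949). Cdk1, the kinase of mitosis, was below the filter, with 134 and 256 reads against 35 and 58. The high libraries themselves differed, replicate 2 being the higher for each of these 3 genes. Of 17 DNA replication genes Rrm2, a ribonucleotide reductase subunit, alone fell, from 28.3 and 32.1 to 20.0 and 20.5 RPKM (adjusted p = 0.00655, up to 0.0982 without high replicate 2 or low replicate 1). Of 19 cell cycle inhibitors and p53 targets 2 rose, Cdkn2d and Bbc3, both with calls that ended when any 1 of the 4 old libraries was left out, that of Cdkn2d also by limma-voom.

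Lists of the general cell machinery gave few calls, where limma called 5.38% of all genes tested. None of 81 cytosolic ribosomal protein genes (median -0.01), 36 complex I genes (median -0.01), 37 genes of complexes II to V, 8 mitochondrially encoded genes or 21 glycolysis genes was called by limma or by limma-voom. At an unadjusted p under 0.05 these lists held 1, 1, 1, 0 and 5 genes. With the old libraries alone limma called the glycolysis gene Pgk1 as lower (adjusted p = 0.0465). All 31 proteasome genes measured had a difference below 0 (median -0.18), where 47.4% of all genes tested had a difference above 0. Of the 31, 28 did not overlap between the fractions, where 55.5% of all genes tested did not. None passed the test by limma over the 6 libraries or by limma-voom, and 9 had an unadjusted p under 0.05. With the old libraries alone limma called Psmc2 and Psmd1 as lower (adjusted p = 0.0366 and 0.0453). Psmd2, a base subunit, was at 91.4 and 87.4 RPKM against 76.2 and 73.0 (adjusted p = 0.133). Heat shock chaperones gave 3 rises among 21, of which Hspa1a was at 254 and 231 RPKM in the high fraction and at 419 and 369 in the low one (0.70 ± 0.10, adjusted p = 0.00398), with 1066.9 and 1104.9 in young cells. Its call and that of its neighbour Hspa1b, a near copy, ended without high replicate 2 or low replicate 1 (up to 0.0635 and 0.113), and that of Dnajb1 ended when any 1 of the 4 old libraries was left out.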

How the data were processed

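RNA of the 6 libraries was made into cDNA from an oligo(dT) primer and read as single ends of 150 bases on a NextSeq 500, at 68 to 98 M reads a library, per the labels' protocols. The submitters' processing notes name Trim Galore, STAR, Subread with featureCounts and edgeR, and the build mm10 (GRCm38), without versions; strand and annotation are not given in the sources used here. The authors deposited 1 table of RPKM values, unit RPKM, for 12067 rows, 7 symbols being on 2 rows. Whole reads could be recovered for 99.99% of rows, within 0.02 reads or a relative 3e-07; 230 values in 144 genes stand where the reads were 0. Gene positions came from GENCODE on GRCm38, in which 11988 symbols (99.35%) were found, and promoter windows from RefSeq.

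Values were taken as log2(RPKM + 1), genes under 1 RPKM in all but 1 library were left out (1458), and limma 3.58.1 (R 4.3.3, trend on) was fitted to the 3 groups over 6 libraries, which leaves 3 residual degrees of freedom. Genes were called at a Benjamini-Hochberg adjusted p under 0.05 over all 10609 genes. Code was tested on simulated data. Tests were two-sided. Figures and tables were made with Python 3.11.15.

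The gene lists and the comparison were chosen with earlier results of these data known. Genes were named by rule: the 15 largest rises and 15 largest falls of at least 5 RPKM without overlap, the 10 largest each way of at least 100 RPKM, the 5 largest ratios each way of at least 2 RPKM, up to 5 called members of each list, and a fixed panel. Members that are named as not called, or to complete a list, and Ctsk, were chosen after their values were seen. Some genes that the rule names are not reported here. Alternatives were another pseudocount, other filters, other scalings, limma-voom on the recovered reads, the old libraries alone, a replicate block, and each library left out.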

Additional observations from a re-analysis of the deposited data

How the results depend on the processing

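The count of 571 called genes became 486 with a pseudocount of 0.1, 688 without a filter, 274 with a filter of 5 RPKM (fewer genes tested), 565 with median-of-ratios scaling, 594 with scaling to library size only, 643 by limma-voom on reads (526 of them among the 571) and 864 with the old libraries alone. Leaving out 1 library gave 312 to 863 calls, the lowest without old GSH-high replicate 2 and the highest without young replicate 2. Of the 571, 262 (182 rises and 80 falls) were called without each of the 6 libraries and 256 in every alternative that tested them, and none changed sign in any. The count of called genes with a fitted difference of at least 1 either way, on the log2 scale of each setting, was 173, and became 256 with a pseudocount of 0.1, 95 with the 5 RPKM filter, 299 by limma-voom, and 168 to 178 with 1 library left out. The cause of these shifts was not tested, apart from the number of genes tested under the filter. No scaling moved the median of all genes beyond -0.04, and the share of rises among the calls was 59.5% to 71.4%. A pseudocount of 0.1 also ended the calls of Mkx, Chrdl1, Acvrl1, Aqp7 and H2-DMb1, and the 5 RPKM filter that of Klf6.

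Whether same-numbered libraries were paired could not be settled from the values. Deviations of the replicate 1 libraries from their group means correlated at 0.07 between the old fractions. The correlation was -0.14 between young and old GSH-high and -0.26 between young and old GSH-low. With 2 libraries a group, replicate 2 deviates by the same amount the other way, so it adds no information. With the replicate number as a block 479 genes were called, against 571 without it. In the old libraries alone the counts were 1067 with the block and 864 without it. Setting replaced zeros to 0, an alternative chosen after seeing the data, gave 570. Depth limits the genes near the filter, which rest on few reads, and 2 libraries a fraction limit all others.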

Other observations

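The genes in this section were chosen after their values were seen. Mast cell genes were read in the old GSH-high fraction: Cma1, mast cell chymase, had 85 and 161 reads there, 1 and 2 in the GSH-low fraction and 0 in young cells, and Tpsb2, a tryptase, had 43 and 54 reads there and 0 in the 4 other libraries. Ibsp, bone sialoprotein, was at 0.363 and 0.641 RPKM in the GSH-high fraction and at 4.82 and 4.86 in the GSH-low one (adjusted p = 0.000267 by limma), and Bglap2, an osteocalcin copy, had 3 and 14 against 75 and 67 reads (adjusted p = 0.000253). Ibsp was thus below the filter's 1 RPKM in both GSH-high libraries, and Bglap2 rested on few reads there. Their adjusted p values are limited by this. Tac1, the precursor of substance P, went from 4.8 and 3.64 to 20.1 and 13.6 RPKM, and Gfra3, the receptor for artemin, from 0.268 and 0.129 to 3.1 and 1.64 (adjusted p = 0.000587 and 0.00202). The neurotrophic factors Gdnf and Ntf3 did not pass limma's test, Gdnf being at 49.8 and 46.7 against 43.7 and 36.8 RPKM (adjusted p = 0.202) and Ntf3 at 28.4 and 33.3 against 23.0 and 25.1 (adjusted p = 0.115).

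Cyp26a1, which degrades retinoic acid, was at 75.8 and 70.5 RPKM in the GSH-high fraction, 38.6 and 36.3 in the GSH-low one and 2.7 and 2.07 in young cells (-0.95 ± 0.11, adjusted p = 0.000965 by limma). Other genes of the retinoid pathway did not pass the test: Aldh1a1, which makes retinoic acid, was at 9.63 and 9.75 against 10.7 and 11 RPKM (adjusted p = 0.371), and its target Rarb at 0.651 and 0.924 against 1.19 and 1.04 (adjusted p = 0.277). Haemoglobin genes were higher in a single library, their summed level being 34.1 RPKM in old GSH-low replicate 1, 14.2 in replicate 2 and 17.1 and 18.7 in the GSH-high fraction, and none of the 4 was called by limma or limma-voom or had an unadjusted p under 0.05 over the 6 libraries, while limma called all 4 as higher when replicate 2 of the GSH-low fraction was left out.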
